A study of Mus musculus with 4 samples.

Results

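ARP2/3 is a complex of 7 proteins that starts new actin filaments as branches on the side of existing ones. The 10 genes described here were taken by symbol from a table of 14934 genes: the ARP2/3 subunit genes Actr2, Actr3, Arpc1b, Arpc2, Arpc3, Arpc4 and Arpc5, together with Was, Wipf1 and Coro1a. All 10 were found once each and all 10 passed the filter on low counts. They were read in CD8 T cells that had infiltrated hepatocellular carcinoma in mice, sorted by flow cytometry into JAML-positive cells (2 libraries, titled JAML) and JAML-negative cells (2 libraries, titled CON). JAML (junctional adhesion molecule-like) is a surface receptor of the immunoglobulin superfamily. All 4 libraries are labelled wild type with no treatment given, and each group has replicates lettered A and B. The age of the mice, the tumour model and whether the letters stand for different mice or for repeat sorts are not stated in the labels, so p-values cover the spread among 4 libraries only, and that spread may be technical.

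Branched actin made by ARP2/3 forms the leading edge of a crawling T cell and the outer ring of the immune synapse, the contact through which a CD8 T cell holds and kills its target. ARP2/3 is idle until a nucleation promoting factor binds it. In T cells WASP, encoded by Was, does this at the synapse after activation by the GTPase CDC42, and WIP, encoded by Wipf1, binds WASP and protects it from degradation. Coronin 1A, encoded by Coro1a, is the main coronin of T cells, binds actin filaments and ARP2/3, and is needed for the survival and migration of T cells. Inherited loss of WASP, WIP, coronin 1A or the ARPC1B subunit causes immunodeficiency in humans.

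The libraries held 27717149 and 30569728 counts in the JAML-positive group (A, then B), and 27819178 and 27530187 in the JAML-negative group. JAML-positive replicate A stood apart, with 12.09% of its counts in 76 ribosomal protein genes, against 7.39% in JAML-positive replicate B and 8.23% to 8.28% in the JAML-negative libraries. The CD8 T cell markers found in the table (6 of 8 listed) summed to 3944 and 3457 CPM (library-scaled counts, with TMM factors) in JAML-positive libraries A and B, against 3466 and 3651 CPM in JAML-negative libraries A and B. Markers of dendritic cells and MHC class II (9 of 9 listed) summed to 374 and 208 CPM in JAML-positive libraries, against 64.9 and 61.8 CPM in JAML-negative libraries, those of macrophages and monocytes (9 of 9) to 204 and 160 CPM against 82.2 and 88.3 CPM, and those of B and plasma cells (8 of 10) to 132 and 84.9 CPM against 10.5 and 18.1 CPM. Mzb1 and Sdc1 of the last list were at 0 in both JAML-negative libraries and Pax5 was at 0 in both JAML-positive libraries. JAML-positive lay above JAML-negative without overlap in 6 of the 9 dendritic and MHC class II markers. It did so in 2 of the 9 macrophage and 3 of the 8 B and plasma cell markers (20.3% of all tested genes). Plasmacytoid dendritic cell markers (5 of 5) summed to 270 and 253 CPM in JAML-positive libraries, against 99.6 and 112 CPM in JAML-negative libraries, and 4 of the 5 lay above without overlap. Erythroid and platelet markers (3 of 5) summed to 49.6 and 12.7 CPM, against 0 and 0.0363 CPM, and all 3 lay above without overlap. In the other lists this held for 2 of 6 CD8 T, 2 of 5 CD4 and regulatory T, and 1 of 5 NK cell markers. It held for 1 of 3 neutrophil, 0 of 4 hepatocyte and 2 of 5 endothelial and stromal markers. NK cell markers (5 of 5) summed to 155 and 170 CPM, against 158 and 164 CPM. Was, Coro1a and Arpc1b are used by blood cells in general, and the part of these other cells in the values below was not tested. Transcripts of Jaml itself stood at 138 and 147 CPM in JAML-positive libraries and 131 and 117 CPM in JAML-negative libraries (log2 fold change 0.20, standard error (SE) 0.22, edgeR adjusted p = 0.989).

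The start regions of 6 of the genes are shown: 4 that share a short motif, and Arpc5 and Wipf1, which had the highest and the lowest RNA fold change of the 10 genes. Each sequence runs 5′ to 3′ in the direction of the gene, from 70 bases before to 30 bases after the RefSeq start (RefSeq sequence, GRCm38.p6). Capitals mark, on either strand, the ETS motif CCGGAAGT, the GC box GGGCGG, the CCAAT box CCAAT or the TATA box TATAAA. For Wipf1, which has 3 starts in the table, the outermost is shown, and its stretch holds no match.
Actr2, chr11:20112922-20113021, minus strand: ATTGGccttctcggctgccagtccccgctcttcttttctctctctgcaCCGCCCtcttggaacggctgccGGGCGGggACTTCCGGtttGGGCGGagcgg
Actr3, chr1:125435698-125435797, minus strand: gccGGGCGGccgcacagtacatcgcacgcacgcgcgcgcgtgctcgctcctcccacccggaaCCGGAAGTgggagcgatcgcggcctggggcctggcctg
Arpc3, chr5:122391808-122391907, plus strand: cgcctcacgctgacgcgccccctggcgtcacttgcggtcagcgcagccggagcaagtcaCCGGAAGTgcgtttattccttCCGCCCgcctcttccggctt
Arpc4, chr6:113378043-113378142, plus strand: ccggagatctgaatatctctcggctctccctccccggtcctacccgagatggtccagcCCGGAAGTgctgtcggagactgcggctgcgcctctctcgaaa
Arpc5, chr1:152766472-152766571, plus strand: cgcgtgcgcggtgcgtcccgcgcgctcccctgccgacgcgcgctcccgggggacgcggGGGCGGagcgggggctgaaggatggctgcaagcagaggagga
Wipf1, chr2:73529458-73529557, minus strand: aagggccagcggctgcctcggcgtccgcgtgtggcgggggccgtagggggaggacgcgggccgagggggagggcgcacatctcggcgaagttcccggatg
CCGGAAGT, the letters preferred by many ETS family transcription factors, lay close to the start in 4 of the 10 genes, all of them subunits. Its first base was at position -8 in Actr3, -11 in Arpc3 and -12 in Arpc4, and at position 9 after the start, on the opposite strand, in Actr2. Over windows of 250 bases before to 50 after a start, 4 of 13 windows of these genes held it, against 3.89% of 32851 windows in the whole RefSeq table. A GC box was in 9 of the 13 windows (35.7% of all windows), a CCAAT box in 3 (37.4%) and a TATA box in 0 (13.6%). These shares were not matched for base content, and CCGGAAGT and GGGCGG are rich in G and C. The median GC content of all windows was 52.7%, and the 13 windows ran from 41.7% to 75.3%. Those with CCGGAAGT had 72.0% (Actr2), 67.3% (Actr3), 52.7% (Arpc3) and 59.7% (Arpc4). The part of base content in the motif counts was not tested. The sequences are a description of these windows, and no binding was measured.

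The ARP2/3 genes were abundant in every library, at levels that spanned several-fold between subunits. Levels of different genes are compared here as CPM per kilobase of the longest coding transcript. Coro1a was highest of the 10 genes in each of the 4 libraries, with 878 and 712 CPM per kilobase in JAML-positive libraries A and B, and 673 and 742 CPM per kilobase in JAML-negative libraries A and B. Actr3, which encodes ARP3, was second in each library (572 to 710 CPM per kilobase over the 4 libraries), and Arpc2, which with ARPC4 forms the core that clamps the mother filament, came next (519 to 591). Below these came Arpc5 (242 to 344), Actr2, which encodes ARP2 (236 to 258), and Arpc3 (204 to 305), whose ranges overlap. Wipf1 (104 to 141), Arpc1b (89.7 to 120), Arpc4 (89.7 to 118) and Was (85.3 to 111) lay lowest and changed places between libraries. Among the 7 subunits, which stand in equal number in the complex, the mean level over 4 libraries of the highest (Actr3) was 6.16 times that of the lowest (Arpc4).

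The order of levels depends in part on the transcript length used. With the median length of the annotated coding transcripts, a choice made after the data were seen, Actr3 stood at 2436 CPM per kilobase, above Coro1a at 1593, and Arpc1b stood at 462 in place of 104. These median lengths were 667 bases for Actr3, 824 for Coro1a and 696 for Arpc1b, against 2565, 1747 and 3105 for the longest. Whether such short medians come from partial transcripts was not checked. The highest subunit (Actr3) was then 11 times the lowest (Arpc4), in place of 6.16 times. Was kept the lowest mean level (97.4) with either length. By the longest transcript each of the 10 genes stood at or above percentile 95.6 of the genes with a known length.

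**Figure D1:**
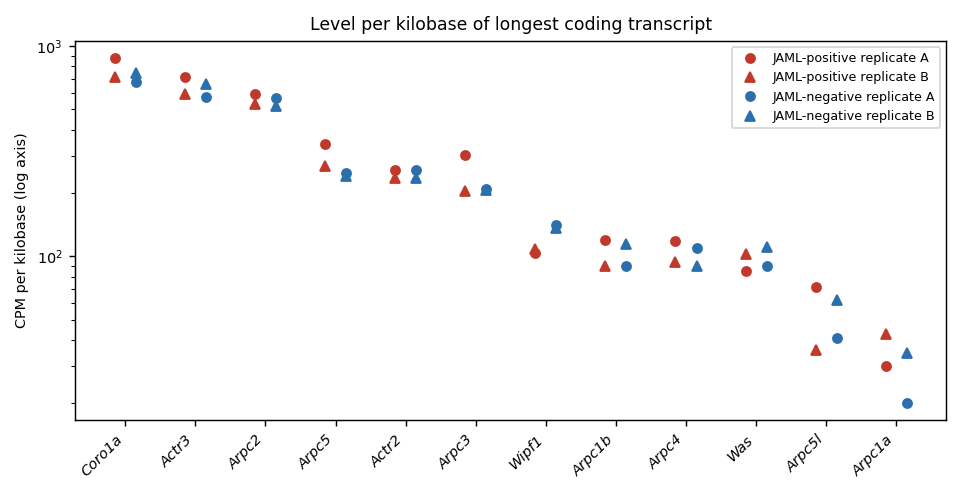
Level of each gene in each library, as CPM per kilobase of the longest coding transcript on a log axis, for the 10 genes and the paralogues Arpc5l and Arpc1a. Red points are JAML-positive and blue points JAML-negative libraries. Coro1a, Actr3 and Arpc2 lie on top in all 4 libraries, and Arpc5l and Arpc1a lie lowest, at 20.1 to 71.1.

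Some subunits exist as a pair of paralogues, and the blood cell form of ARPC1 was the main one in both groups. Arpc1a and Arpc1b are neighbours on chromosome 5, at chr5:145083869-145108756 and chr5:145114256-145128186. Arpc1b had 9818 and 8776 counts in JAML-positive libraries A and B and 7865 and 9796 in JAML-negative libraries A and B, while Arpc1a had 1300 and 2174 in JAML-positive and 929 and 1552 in JAML-negative replicates. Per kilobase, Arpc1b made up 79.9% and 68% of the pair in JAML-positive libraries A and B, against 81.7% and 76.8% in JAML-negative libraries A and B. The groups overlap, and the difference of means of -5.32 percentage points gave an exact two-sided permutation p of 0.667, where 0.333 is the smallest that 2 libraries against 2 can give. Without division by length the difference was -3.65 percentage points. The size of the share depends on the length used. With median lengths the mean levels were 462 (Arpc1b) and 46.8 (Arpc1a) CPM per kilobase, in place of 104 and 31.9.

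Arpc5 likewise outnumbered Arpc5l. Arpc5 made up 82.9% and 88.2% of the pair per kilobase in JAML-positive libraries A and B, against 85.9% and 79.6% in JAML-negative libraries A and B (difference 2.78 percentage points, exact permutation p = 0.667). The 2 groups overlap here as well. The counts of the minor forms were less even between replicates than those of the major forms: Arpc5l had 2518 and 1503 counts in JAML-positive libraries A and B, and 1538 and 2287 in JAML-negative libraries A and B. Actr3b, a paralogue of Actr3, had 108 counts in JAML-positive replicate A and 0 in each of the other libraries, where the floor of 3 counts is 0.098 to 0.109 CPM. Such floors cover counting error only, since the labels mention no molecular identifiers.

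Between JAML-positive and JAML-negative cells 0 of the 10 genes passed the test, as did 0% of the 11563 genes tested. With edgeR's quasi-likelihood test and adjustment over all genes, their adjusted p lay between 0.726 and 1. At an unadjusted p under 0.05 there were also 0 of the 10 genes, against 7.04% of all tested genes (4.28% higher and 2.76% lower). The 95% interval of every one of the 10 log2 fold changes lay within a 2-fold difference in either direction. That held for 67.5% of the 2252 tested genes of at least 100 CPM and for 17.7% of all tested genes. The median log2 fold change of the 10 genes was 0.06, beside 0.01 over all tested genes.

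**Figure D2:**
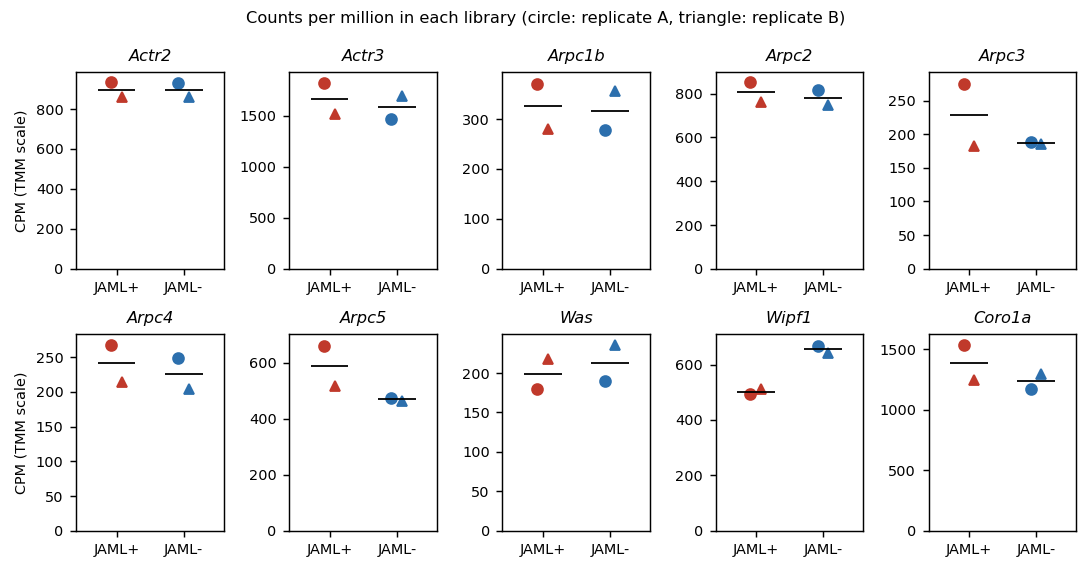
CPM on the TMM scale for each of the 10 genes in each library, with JAML-positive (JAML+, red) on the left and JAML-negative (JAML-, blue) on the right, replicate A as circle and B as triangle, and the group mean as a bar. Only the groups of Arpc5 and Wipf1 do not overlap.

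Among the subunits, ARP2 and ARP3 form the start of the new filament. Actr2 (Entrez 66713, chr11:20062304-20112951) stood at 935 and 858 CPM in JAML-positive libraries A and B and at 931 and 862 CPM in JAML-negative libraries A and B. These values interleave almost exactly, the range over the 4 libraries (0.13 on the log2 scale) being the smallest of the 10 genes, and the 95% interval of the fold was 0.75 to 1.33. Actr3 (Entrez 74117, chr1:125392905-125435727) stood at 1820 and 1514 CPM in JAML-positive libraries A and B, against 1468 and 1698 CPM in JAML-negative libraries A and B. Its groups overlap (log2 fold change 0.07, SE 0.18, edgeR adjusted p = 1).

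ARPC2 and ARPC4 hold the complex together and bind the mother filament. Arpc2 (Entrez 76709, chr1:74236490-74268209) had 851 and 761 CPM in JAML-positive libraries A and B, and 818 and 747 CPM in JAML-negative libraries A and B. Arpc4 (Entrez 68089, chr6:113378113-113390447) had 267 and 214 CPM in JAML-positive libraries A and B, and 249 and 204 CPM in JAML-negative libraries A and B. In both genes replicate A was above replicate B in each group, and the difference between groups (log2 fold changes 0.04 and 0.09, SE 0.17 and 0.22) was smaller than that between replicates. Of the exonic bases of Arpc4, 12.2% are shared with Ttll3 on the same strand, so its counts are uncertain to that extent.

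Arpc1b (Entrez 11867, chr5:145114256-145128186) encodes the WD repeat subunit that helps WASP-type factors to engage the complex. It stood at 371 and 281 CPM in JAML-positive libraries A and B, against 278 and 356 CPM in JAML-negative libraries A and B. Each group held a high and a low library (log2 fold change 0.04, SE 0.23, edgeR adjusted p = 1). Exons of Pdap1 on the opposite strand cover 18.2% of its exonic bases, and the sources used here do not say whether counting used strand.

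ARPC3 bridges ARP3 and the rest of the complex. Arpc3 (Entrez 56378, chr5:122391878-122406181) had 274 and 183 CPM in JAML-positive libraries A and B, against 188 and 185 CPM in JAML-negative libraries A and B. JAML-positive replicate A alone was high and the other 3 libraries lay together. On the log2 scale the difference was 0.29 (SE 0.25, edgeR adjusted p = 0.939). It was -0.02 when that library was left out.

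Arpc5 (Entrez 67771, chr1:152766542-152775580), the subunit that ties ARP2 to the complex, was the member with the highest fold change. Its CPM were 659 and 515 in JAML-positive libraries A and B, and 475 and 464 in JAML-negative libraries A and B. The groups do not overlap, with JAML-positive above, as in 20.3% of all tested genes. Its fold change on the log2 scale was 0.32 (SE 0.19, edgeR adjusted p = 0.829), with a 95% interval of the fold of 0.90 to 1.74. It was 0.14 when JAML-positive replicate A was left out, 0.48 when JAML-positive replicate B was left out, and -0.08 with uncentred length and GC trends removed, where all tested genes had a median of -0.21.

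The signs of the subunits changed with the library left out, most of all with JAML-positive replicate A. With all 4 libraries 6 of the 7 subunits had a positive log2 fold change, where 50.7% of all tested genes did. Without JAML-positive replicate A 1 of the 7 did, which was Arpc5 (48.7% of all tested genes), and without JAML-positive replicate B all 7 did (49.1%). Leaving out JAML-negative replicate A gave 5 of the 7, and leaving out JAML-negative replicate B gave 4 of the 7, with 56.1% of all tested genes positive in either case. With trends on transcript length and GC content removed in each library, 3 of the 7 were positive when each trend was centred to keep the TMM scaling, and 0 of the 7 when it was not. The uncentred trends moved the median of all tested genes to -0.21, from which the subunits (-0.42 to -0.08) lay on both sides. Centring was chosen after the uncentred values had been seen. Across all tested genes the median log2 fold change was 0.33 for transcripts under 1000 bases and -0.22 for those of 8000 bases or more. The longest coding transcripts of the subunits are between 899 bases (Arpc3) and 3631 bases (Actr2).

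**Figure D3:**
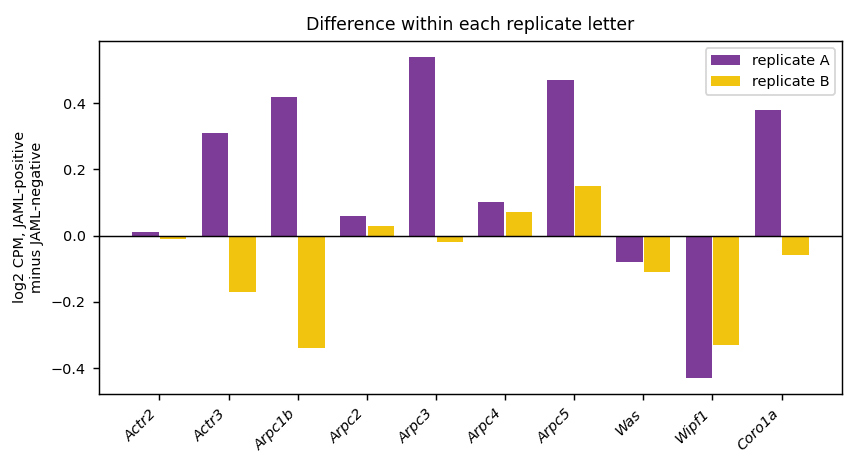
Difference in log2 CPM, JAML-positive minus JAML-negative, for each gene within replicate A (purple) and within replicate B (yellow). Arpc1b, Actr3 and Coro1a are positive in A (0.42, 0.31 and 0.38) and negative in B (-0.34, -0.17 and -0.06), while Wipf1 is negative in both (-0.43 and -0.33).

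Of the activators, Was showed no separation and Wipf1 had the lowest fold change of the 10 genes. Was (Entrez 22376, chrX:8081466-8090491) stood at 180 and 218 CPM in JAML-positive libraries A and B, and at 190 and 235 CPM in JAML-negative libraries A and B. In each group replicate A was the lower library, and the groups overlap (log2 fold change -0.09, SE 0.22, edgeR adjusted p = 1). Wipf1 (Entrez 215280, chr2:73429610-73529487) stood at 494 and 511 CPM in JAML-positive libraries A and B, and at 668 and 642 CPM in JAML-negative libraries A and B. Replicates were close within each group and the groups do not overlap, with JAML-positive below, as in 18.2% of all tested genes.

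The Wipf1 difference did not pass edgeR and did pass DESeq2. The mean was 502 ± 12.1 CPM in JAML-positive and 655 ± 18.4 CPM in JAML-negative cells (SD, n = 2 libraries each), 0.77 times as high. On the log2 scale this was -0.38 (SE 0.16, edgeR unadjusted p = 0.0598, adjusted p = 0.726), with a 95% interval of the fold of 0.58 to 1.02. DESeq2 gave -0.40 (SE 0.12, adjusted p = 0.0215) and called 7.65% of all tested genes, 4.64% as higher and 3.02% as lower. Limma-voom called 0% of all tested genes. The fold change of Wipf1 stayed negative in all 16 other settings, from -0.51 (uncentred trends) to -0.29, with adjusted p from 0.0215 to 0.944. Its longest coding transcript has 4728 bases, and tested genes of 4000 to under 8000 bases had a median log2 fold change of -0.11. With centred length and GC trends removed the value of Wipf1 was -0.29 (SE 0.13, edgeR adjusted p = 0.72). In bulk samples, fewer cells of a type and less RNA per cell cannot be told apart, and this holds for Wipf1 as for the other genes.

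Because WIP holds WASP, their ratio was also read in each library, a choice made after the data were seen. Was per kilobase was 0.817 and 0.955 times Wipf1 per kilobase in JAML-positive libraries A and B, and 0.638 and 0.819 times in JAML-negative libraries A and B. JAML-positive replicate A lay just below JAML-negative replicate B, so the groups overlap.

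Coro1a (Entrez 12721, chr7:126699774-126704816) stood at 1533 and 1245 CPM in JAML-positive libraries A and B, and at 1175 and 1297 CPM in JAML-negative libraries A and B. JAML-positive replicate A was the highest library, and JAML-positive replicate B lay between the JAML-negative libraries. On the log2 scale the difference was 0.17 (SE 0.18, edgeR adjusted p = 0.988). Leaving out JAML-positive replicate A gave 0.01.

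**Figure D4:**
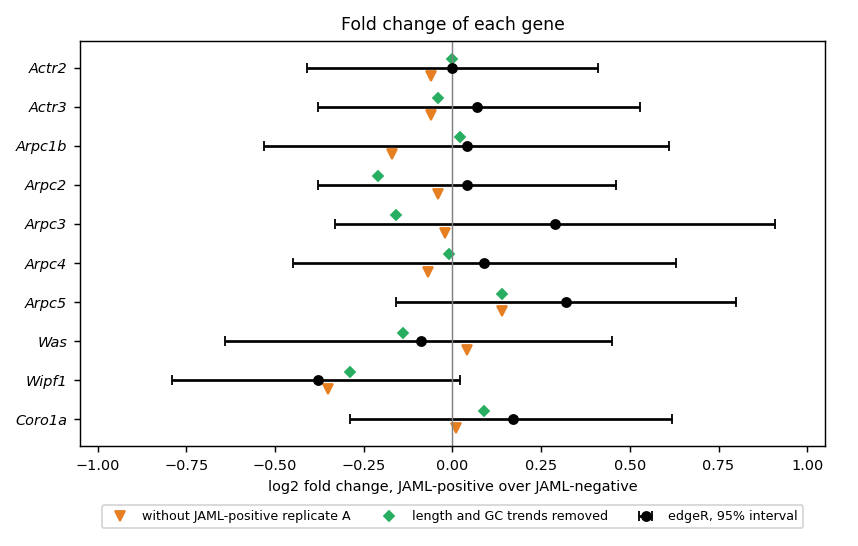
Log2 fold change of each gene, JAML-positive over JAML-negative, from edgeR with its 95% interval (black), without JAML-positive replicate A (orange triangles) and with centred length and GC trends removed (green diamonds). Every interval crosses 0 and stays between -1 and 1, and Wipf1 is below 0 in all 3 settings.

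The spread between libraries was smaller for these genes than for tested genes of at least 100 CPM, a set not matched for level. Group means of the 10 genes ran from 187 CPM (Arpc3, JAML-negative) to 1667 CPM (Actr3, JAML-positive). Their range of log2 CPM over the 4 libraries had a median of 0.39, from 0.13 (Actr2) to 0.58 (Arpc3), beside a median of 0.60 for the 2252 tested genes of at least 100 CPM. Centred on each gene's mean, the median of the 10 genes was 0.19 in JAML-positive replicate A, -0.08 in JAML-positive replicate B, -0.11 in JAML-negative replicate A and -0.03 in JAML-negative replicate B. By root mean square difference from this profile over the 4 libraries, the most similar of 2242 other genes of at least 100 CPM were Dazap2 (0.020), Thy1 (0.028) and Gimap7 (0.028), on the log2 scale.

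The other genes that feed, oppose or relieve ARP2/3 were read as 10 lists, of which 108 of 120 genes were tested. By sign 52 were higher and 56 lower in JAML-positive cells, with a median log2 fold change of -0.04, and 0 passed edgeR after adjustment (smallest adjusted p = 0.704). With no adjustment, p was under 0.05 for 3 higher genes (Capg, Diaph3 and Fscn1) and 4 lower genes (Jmy, Abi1, Dock11 and Zyx), 6.48% of the 108, beside 7.04% of all tested genes. DESeq2 called 5 of the 108 (4.63%), 2 higher (Vcl and Fscn1) and 3 lower (Jmy, Abi1 and Dock11), below its share of 7.65% over all tested genes (4.64% higher and 3.02% lower). The relatives of WASP and WIP had 1 higher and 4 lower of 5 tested genes, with a median of -0.33.

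The 3 lower genes that DESeq2 called encode a nucleation promoting factor, a subunit of one, and an activator of CDC42. Their lists were chosen for such functions, so these functions are not a finding. DESeq2 called 3.02% of all tested genes lower. Jmy, which encodes a nucleation promoting factor that also acts on p53, had 47.2 and 43.6 CPM in JAML-positive libraries A and B, and 86.8 and 90.8 CPM in JAML-negative libraries A and B. That is 0.51 times as high, with groups that do not overlap (log2 fold change -0.97, SE 0.29, edgeR adjusted p = 0.704, DESeq2 adjusted p = 6.72e-04). Abi1, a subunit of the WAVE complex that activates ARP2/3 at the leading edge, had 194 and 191 CPM in JAML-positive libraries A and B, and 319 and 274 CPM in JAML-negative libraries A and B. For Abi1 the fold change was -0.62 on the log2 scale (SE 0.19, edgeR adjusted p = 0.704, DESeq2 adjusted p = 0.0022). Removal of centred length and GC trends gave -0.64. Dock11, an exchange factor that activates CDC42, had 238 and 271 CPM in JAML-positive libraries A and B, and 409 and 419 CPM in JAML-negative libraries A and B (log2 fold change -0.70, SE 0.18, edgeR adjusted p = 0.704, DESeq2 adjusted p = 1.61e-04). For Jmy and Dock11, with longest coding transcripts of 8776 and 6665 bases, removal of the centred trends gave -0.71 and -0.55.

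The genes named next passed neither tool. Wasf2, which encodes the nucleation promoting factor WAVE2, had a log2 fold change of -0.33 (SE 0.19), Abi3 -1.68 (SE 0.78), the exchange factor gene Vav3 -0.90 (SE 0.40) and Fnbp1, whose product bends membranes and binds WASP family proteins, -0.32 (SE 0.17). Abi3 rested on uneven libraries, with 110 and 560 counts in JAML-positive libraries A and B, and 894 and 1081 in JAML-negative libraries A and B, and was -0.98 without JAML-positive replicate A and -3.10 without JAML-positive replicate B. With centred length and GC trends removed, Fnbp1 was -0.09 and Wasf2 -0.13. Wipf2, a relative of WIP, had -0.50 (SE 0.43; -0.12 without JAML-negative replicate A) and Wasl, which encodes the broadly expressed N-WASP, -0.19 (SE 0.60). Wasl was at 12.9 and 32.9 CPM in JAML-positive libraries A and B, against 23.8 and 28.6 CPM in JAML-negative libraries A and B, far below Was. Nck1, an adaptor that recruits WASP, had a positive value (0.52, SE 0.35). In the WASH complex, which works on endosomes, Washc5 had -0.35 (SE 0.29) and Washc3 0.47 (SE 0.51).

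The list of coronins, ARP2/3 inhibitors and debranching factors had 6 higher and 2 lower of 8 tested genes. It also took in Hcls1, so the count is not of genes that all limit branches. Coro1c had 154 and 151 CPM in JAML-positive libraries A and B, and 114 and 124 CPM in JAML-negative libraries A and B (log2 fold change 0.36, SE 0.22, edgeR adjusted p = 0.83). The groups of Coro1c do not overlap. Coro1b (0.25, SE 0.23) and Coro7 (0.08, SE 0.30) had overlapping groups, and Gmfb, a debranching factor, had -0.40 (SE 0.25).

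Among genes of the wider actin machinery, 14 of 21 monomer and turnover genes and 10 of 18 bundling, ERM and myosin genes had higher values. Capg, a filament capping protein that is abundant in macrophages, had 87.9 and 68.6 CPM in JAML-positive libraries A and B, and 49.8 and 36.3 CPM in JAML-negative libraries A and B (log2 fold change 0.86, SE 0.35, edgeR adjusted p = 0.704). Diaph3, a formin that acts in cell division, had 86 and 60.3 CPM in JAML-positive libraries A and B, and 42.9 and 30.4 CPM in JAML-negative libraries A and B (95% interval of the fold 1.04 to 3.83, edgeR adjusted p = 0.704). Zyx, which encodes the adhesion protein zyxin, had a value of -0.49 (SE 0.20), Ssh2, a cofilin phosphatase, -0.63 (SE 0.27; -0.35 without JAML-positive replicate A), and Fmnl1, a formin of blood cells, -0.14 (SE 0.17).

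Both higher genes that DESeq2 called were of low abundance. Vcl, which encodes the adhesion protein vinculin, had 563 and 852 counts in JAML-positive libraries A and B, and 176 and 249 counts in JAML-negative libraries A and B (log2 fold change 1.67, SE 0.69, edgeR adjusted p = 0.712, DESeq2 adjusted p = 0.0245). Fscn1, which encodes fascin, a filament bundler known from mature dendritic cells, had 182 and 247 counts in JAML-positive libraries A and B, and 0 and 1 in JAML-negative libraries A and B. The ratio of summed counts was 415 (exact 95% counting interval 74 to 16417), and this interval leaves out the spread between libraries. With that spread taken in, edgeR placed the fold for Fscn1 anywhere from 1.47 to 73429 (95% interval). Fscn1 did not pass edgeR (adjusted p = 0.704) and did pass DESeq2 (adjusted p = 0.00123). Dendritic cell and MHC class II markers were higher in the same libraries (374 and 208 CPM in JAML-positive, against 64.9 and 61.8 CPM in JAML-negative), and their part in these values was not tested.

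**Figure D5:**
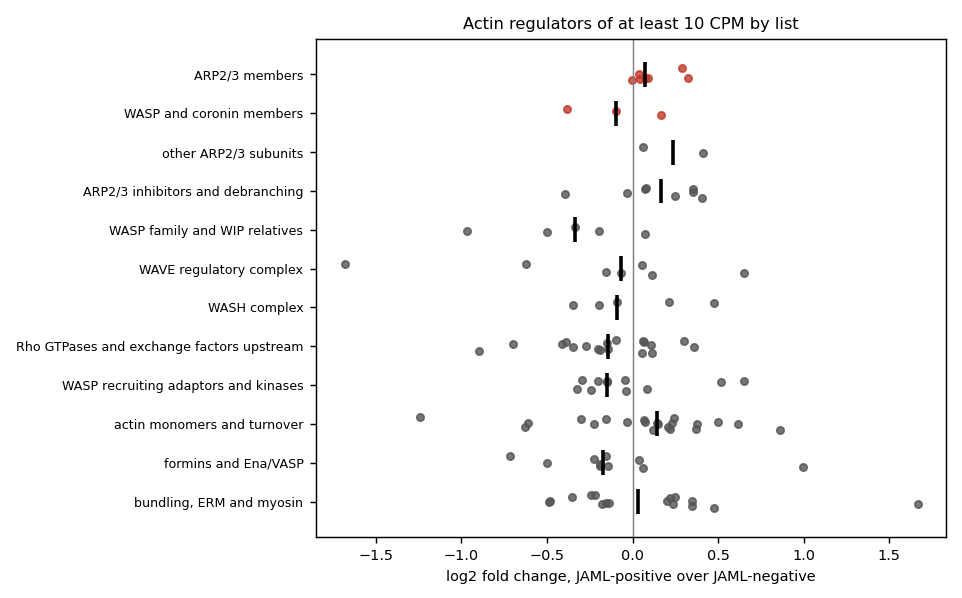
Log2 fold change, JAML-positive over JAML-negative, of the tested genes of at least 10 CPM in each list, with 1 point per gene and a bar at the median of the plotted genes. The 10 genes of the ARP2/3 and WASP lists (red) lie between -0.38 and 0.32, and the 103 other genes (grey) spread more widely on both sides of 0.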

How the data were processed

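Sorted CD8 T cells gave RNA by an RNeasy kit, and sequencing libraries by a SMARTER mRNA-Seq kit, per the labels' protocols. The authors deposited read counts per gene as whole numbers, 1 column per library, with no normalization recorded. Reads were placed on GRCm38 (mm10), per the submitters' processing notes. Aligner, counter, strand setting and annotation: not given in the sources used here.

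Counts were tested with edgeR 4.0.16 in R 4.3.3: filterByExpr with a minimum count of 10 kept 11563 of 14934 genes, TMM factors scaled the libraries, and robust dispersions and a robust quasi-likelihood fit compared the 2 groups without covariates. Two-sided p-values were adjusted by Benjamini-Hochberg over all tested genes with a threshold of 0.05. The SE is the size of the log2 fold change over the root of its F value. The fit was tested on simulated data. DESeq2 1.42.0, limma-voom (limma 3.58.1) and other settings were alternatives, and mgcv 1.9.3 fitted the length and GC trends, centred so that TMM scaling was kept (a choice made after the uncentred outcome was seen, which is given as an alternative). Lengths were those of the longest GENCODE M21 coding transcript (13795 genes, all 10 members). Coordinates are RefSeq GRCm38.p6.

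The genes and lists were chosen with earlier results of these data known. Beside the 10 members, the rule for named genes took the 2 tested genes of each list with the smallest p among those of at least 10 CPM, fixed paralogues and Jaml, and names in full any count of 5 or fewer, which added Fscn1. The value of 1 cell type marker is not reported here.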

Additional observations from a re-analysis of the deposited data

How the results depend on the processing

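The call of 0 among the 10 genes held in every alternative except DESeq2, which called 1 (Wipf1, -0.40). Over all genes DESeq2 called 885, no filter on low counts 2 (Hilpda and Mpeg1) and a filter of at least 30 CPM 1 (Mpeg1), against 0 in the fit reported. With the replicate block 0 genes and 0 of the 10 were called, and the median of the 10 stayed at 0.06. The deviations of libraries of 1 letter correlated at 0.018 across all tested genes. With 1 pair of libraries per letter, this cannot show whether the letters were paired. Leaving out a library gave 0 to 19 calls over all genes, 19 of them without JAML-negative replicate B, and 0 of the 10. The median log2 fold change of the 10 genes went from -0.05 without JAML-positive replicate A to 0.21 without JAML-positive replicate B. Some values turned sign, and since 0 genes passed in the fit reported, none of them could have passed. With length and GC trends removed (alone and with the replicate block) these were Arpc2 (-0.21), Arpc3 (-0.16), Arpc4 (-0.01), Actr2 (0.00), Actr3 (-0.04), Arpc5l (-0.28 and -0.27) and Fmnl1 (0.03 and 0.02). With trends fitted on genes of at least 100 CPM, chosen after the data were seen, they were Arpc2 (-0.20), Arpc3 (-0.05), Actr3 (-0.07) and Arpc5l (-0.24). With uncentred trends, tried first and replaced by centred ones after the outcome was seen, the median of all tested genes was -0.21 and that of the 10 genes -0.24 (main 0.06), with 0 calls. Signs turned there in Arpc1b (-0.20), Arpc2 (-0.42), Arpc3 (-0.37), Arpc4 (-0.23), Arpc5 (-0.08), Actr3 (-0.25), Coro1a (-0.13), Arpc5l (-0.50), Coro1b (-0.03), Washc3 (-0.16) and Jaml (-0.11). Upper quartile factors and the 30 CPM filter gave Actr2 0.01, and limma-voom gave Arpc5l -0.02. Without JAML-positive replicate A, Arpc1b was -0.17, Arpc2 -0.04, Arpc3 -0.02, Arpc4 -0.07, Actr3 -0.06, Was 0.04, Arpc5l -0.51, Wasl 0.33 and Washc3 -0.09. Without JAML-positive replicate B, Actr2 was 0.06. Without JAML-negative replicate A, Arpc1b was -0.13, Actr2 0.05, Actr3 -0.03 and Arpc5l -0.22. Without JAML-negative replicate B, Arpc2 was -0.01, Arpc4 -0.04, Was 0.07 and Coro7 -0.18. The highest values with a library left out were 0.23 for Arpc1b, 0.12 for Arpc2, 0.55 for Arpc3, 0.24 for Arpc4, 0.20 for Actr3, 0.46 for Arpc5l, 0.41 for Coro7 and 0.88 for Washc3, and the lowest for Wasl was -1.02. The cause was not tested. DESeq2 also called Jmy (-0.98), Abi1 (-0.64), Dock11 (-0.72), Vcl (1.65) and Fscn1. The Arpc1b share differed by -11.3 to 0.633 percentage points with a library left out (0.633 without JAML-positive replicate B), the Arpc5 share by -0.377 (without JAML-negative replicate B) to 5.94, and the Actr3 share by -0.283 to 0 (without JAML-positive replicate A, the only library with Actr3b counts). With 2 libraries a group, differences well above the SE (0.16 to 0.25 for the 10 genes) also did not pass edgeR. Wipf1 (-0.38, SE 0.16) had an edgeR adjusted p of 0.726, and Dock11 (-0.70, SE 0.18) one of 0.704. Larger differences, such as those of Jmy (-0.97, SE 0.29) and Vcl (1.67, SE 0.69), did not pass edgeR either. In the fit reported 0 of the 11563 tested genes passed. That fit therefore resolved no difference of any size, and a gene that did not pass may still differ.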
